A study of Arabidopsis thaliana with 8 samples.

Results

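The Calvin cycle and photorespiration share the chloroplast enzyme Rubisco, which adds either carbon dioxide or oxygen to ribulose 1,5-bisphosphate. In the Calvin cycle the carboxylation product is phosphorylated and reduced to triose phosphate, and most of that triose phosphate is used to rebuild the acceptor. In photorespiration the 2-phosphoglycolate made by oxygenation is salvaged through chloroplast, peroxisome and mitochondrion, where glycine decarboxylase releases carbon dioxide and ammonia, and glycerate returns to the cycle. Both pathways run mainly in mesophyll cells of green leaves, and their nuclear genes are among the most highly expressed of a leaf. The 32 genes described here were chosen by locus identifier as nuclear genes for enzymes and regulators of these pathways, and all 32 were found among the 27634 rows of the deposited tables. They comprise 6 genes of carboxylation, 4 of reduction, 8 of regeneration, 3 of the CP12 regulators and 11 of photorespiration.

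RNA came from rosette leaves of Arabidopsis thaliana plants aged 24 days, of the genotypes DLK2-OE1 and wild type (WT), with 4 libraries each. DLK2-OE1 is a line that overexpresses DLK2 (DWARF14-LIKE 2), an α/β hydrolase related to the strigolactone receptor D14 and to KAI2, with the promoter of the transgene not given in the sources used here. Plants of both genotypes had grown for 11 days on plates and 13 days on soil. Because DLK2-OE1 is a single line, a difference caused by DLK2 cannot be told apart from any other difference between that line and WT. Separate plants are not stated for the replicates, so a p-value here reflects the spread between libraries, which may be technical.

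Library totals ran from 18461205 to 19385026 counts in DLK2-OE1 and from 18097159 to 22139801 in WT. DLK2 itself, at 120.2, 150.3, 137 and 145 CPM (TMM-normalised read counts scaled to a common library size) in the DLK2-OE1 libraries against 60.4, 73.5, 85.1 and 73.4 CPM in the WT libraries, was higher in every DLK2-OE1 library than in any WT library (log2 fold change 0.92, SE 0.12, Benjamini-Hochberg adjusted p = 0.0178 over 18155 tested genes by the quasi-likelihood test of edgeR). The edgeR adjusted p of DLK2 was 0.0574 with DLK2-OE1 replicate 1 left out, 0.067 with WT replicate 1 left out and 0.0548 with WT replicate 3 left out. Genes that define green leaf tissue, 32 of the light-harvesting complexes and photosystems, were high in every library, with a summed level of 79237 to 180949 CPM in DLK2-OE1 and 149482 to 195148 CPM in WT. DLK2-OE1 replicates 1 and 2 stood apart from the other 6 libraries on the first principal component, which held 60.3% of the variance, at scores of 61.5 and 87.4 against -47.5 to 11.2. In bulk leaf RNA, fewer cells of a type and less RNA per cell cannot be told apart.

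The genes of both pathways had lower mean levels in DLK2-OE1 leaves than in WT leaves, with a single exception, but none passed edgeR's test across all genes, while DESeq2 called 8. The fitted log2 fold change, DLK2-OE1 over WT, was negative for 31 of the 32 genes, against 49.5% of all 18155 tested genes, and all 32 passed the filter on low counts. The median over the 32 genes was -0.48, with a range from -0.87 for GLDP1, a subunit of glycine decarboxylase, to 0.45 for CP12-3, a small Calvin cycle regulator, and the median over all tested genes was 0.00. The medians were -0.52 for carboxylation, -0.52 for reduction, -0.51 for regeneration, -0.32 for CP12 and -0.42 for photorespiration. Together the 32 genes held 5.58, 3.99, 5.32 and 6.34% of all counts in the DLK2-OE1 libraries, against 7.53, 7.29, 6.91 and 5.45% in the WT libraries. WT replicate 4 lay below DLK2-OE1 replicates 1 and 4, and the other WT libraries lay above all 4 DLK2-OE1 libraries.

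In the quasi-likelihood test of edgeR, 0 of the 32 genes had an adjusted p under 0.05, where 3.69% of all tested genes did. At an unadjusted p under 0.05 the same fit gave 14 genes lower in DLK2-OE1, against 12% of all tested genes, and 1 higher, against 14.3%. DESeq2 called 8 genes at an adjusted p under 0.05. Of these, 7 were lower in DLK2-OE1, where 5.18% of all genes with a DESeq2 adjusted p were called lower, and 1 was higher, where 8.6% were called higher. The 7 lower genes were GLDP1, RBCS1B, TKL1, FBA1, CP12-2, GDH1 and GAPB, and the higher one was CP12-3. Limma-voom called 0. A p that misses the threshold does not show that levels were equal in the 2 genotypes.

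**Figure D1:**
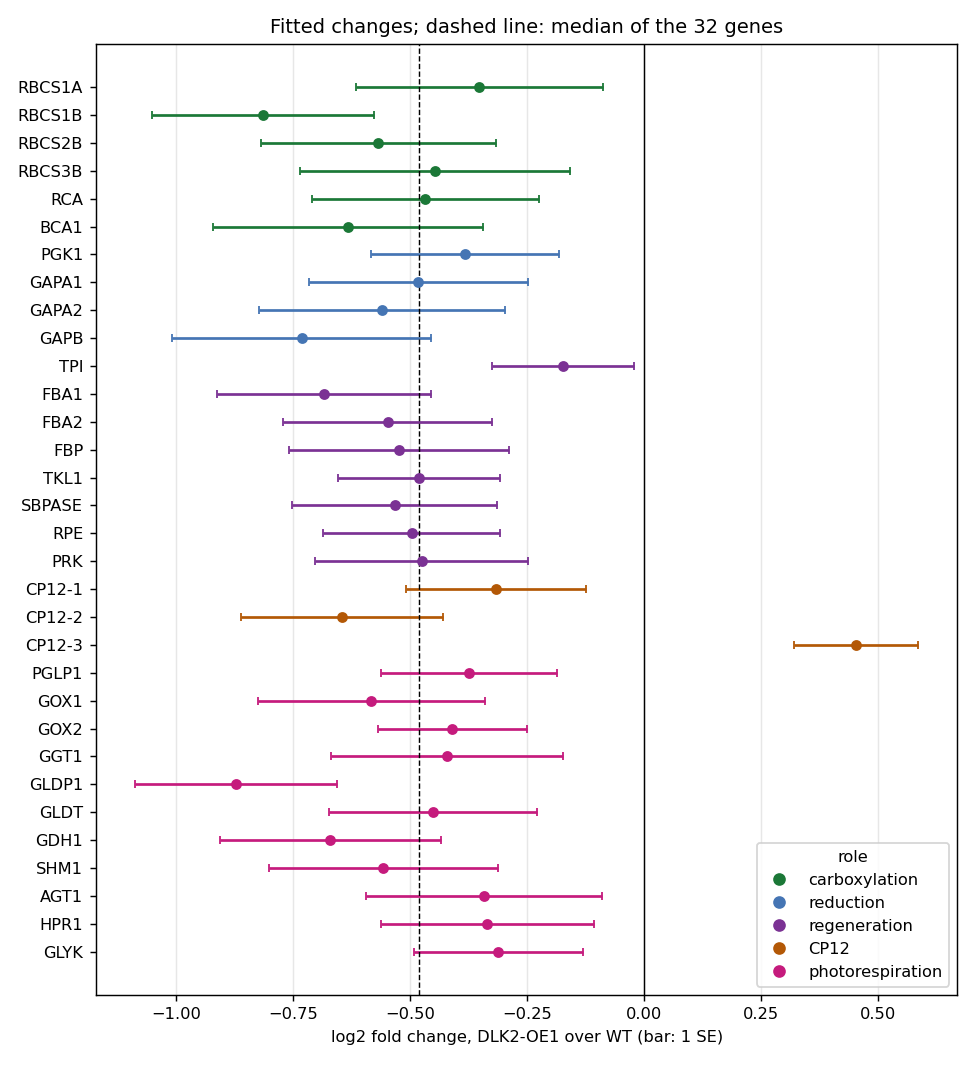
Fitted log2 fold change (horizontal axis, DLK2-OE1 over WT) of each of the 32 genes, coloured by role, with bars of 1 standard error and a dashed line at the median of the 32 genes. All points except CP12-3, at 0.45, lie left of 0, and GLDP1 lies lowest, at -0.87.

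Levels per unit of transcript length, compared as FPKM (fragments scaled to transcript length and library size), spanned 3 orders of magnitude among the 32 genes. RBCS1A (AT1G67090), the main gene for the small subunit of Rubisco, averaged 9837 ± 2035 FPKM in DLK2-OE1 and 11413 ± 2283 FPKM in WT (SD, n = 4 each) and ranked 3 among all genes in WT. RBCS3B (AT5G38410) followed at 5460.0 ± 1388 FPKM in DLK2-OE1 and 6809 ± 1376 FPKM in WT. RCA (AT2G39730), which encodes Rubisco activase, had 3479 ± 643 FPKM in DLK2-OE1 and 4401 ± 502 FPKM in WT. The order of these 3 genes by group mean was the same in both genotypes. At the other end CP12-3 (AT1G76560) averaged 17.6 ± 4.27 FPKM in DLK2-OE1 and 11.5 ± 1.12 FPKM in WT, rank 7990 in WT, and the next lowest gene, GLYK (AT1G80380) for glycerate kinase, averaged 158 ± 21.3 FPKM in DLK2-OE1 and 179 ± 19.3 FPKM in WT.

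**Figure D2:**
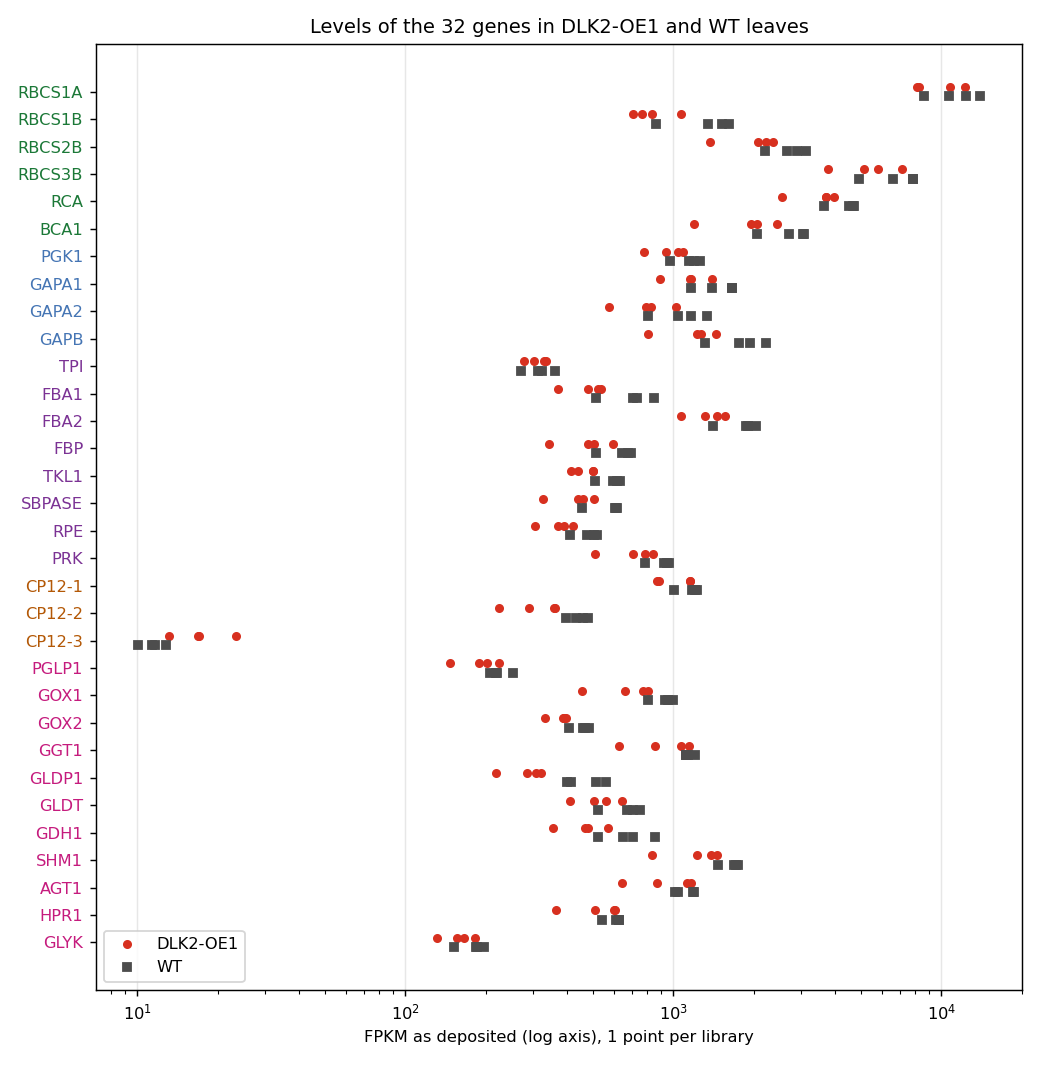
Deposited FPKM (horizontal log axis) of each of the 32 genes in the 4 DLK2-OE1 libraries (red circles) and the 4 WT libraries (grey squares), 1 point per library, with gene names coloured by role. RBCS1A lies highest and CP12-3 lowest, and the 2 genotypes overlap for most genes.

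The carboxylation genes encode the small subunit of Rubisco (4 RBCS genes), Rubisco activase and a chloroplast carbonic anhydrase, and all 6 had negative fold changes. RBCS1B, RBCS2B and RBCS3B stand in tandem on the minus strand of chromosome 5, with 1095 bases between RBCS2B and RBCS1B and 2264 bases between RBCS3B and RBCS2B in the TAIR10.1 annotation, and RBCS1A stands alone on chromosome 1. The coding sequences of the tandem genes were 94.1 to 97.3% identical, and RBCS1A was 87.7 to 90.1% identical to them. The likeness decides how far reads of the 4 copies can be told apart, so the first 90 coding bases of each are shown, with capitals at the 19 positions where the copies differ (RefSeq TAIR10.1, minus strand, 5′ to 3′).
RBCS1A, chr1:25049160-25049249: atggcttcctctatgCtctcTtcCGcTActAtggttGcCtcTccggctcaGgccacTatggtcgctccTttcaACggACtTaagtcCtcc
RBCS1B, chr5:15385066-15385155: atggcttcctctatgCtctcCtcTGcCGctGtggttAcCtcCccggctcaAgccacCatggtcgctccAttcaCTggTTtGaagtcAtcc
RBCS2B, chr5:15381889-15381978: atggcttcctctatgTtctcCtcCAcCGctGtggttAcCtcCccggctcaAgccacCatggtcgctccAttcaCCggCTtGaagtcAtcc
RBCS3B, chr5:15378217-15378306: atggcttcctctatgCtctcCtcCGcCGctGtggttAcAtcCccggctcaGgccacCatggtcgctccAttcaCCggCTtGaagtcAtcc

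Of the stretches of 100 bases in the RBCS transcripts, 18.1% of those of RBCS1B and 12.1% of those of RBCS3B also occurred in the other of the pair, and none of those of RBCS1A and RBCS2B occurred in another annotated gene. With the read length not given in the sources used here, the division of reads between RBCS1B and RBCS3B is uncertain. Only exact stretches of 100 bases were compared, so for shorter reads or reads placed with mismatches the other copies may be uncertain too. RBCS1B and RBCS2B were the closest pair, with coding sequences 97.3% identical. RBCS1B (AT5G38430) had 800.3, 514, 580.3 and 705 CPM in the DLK2-OE1 libraries, against 1389, 1183, 1303 and 695 CPM in the WT libraries. WT replicate 4 lay within the DLK2-OE1 values and the other WT libraries lay above all of them. RBCS1B had a fitted log2 fold change of -0.81 (SE 0.24), and edgeR's adjusted p was 0.0768 where DESeq2's was 0.0076.

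RBCS1A had 10221, 7003, 8401 and 13163 CPM in the DLK2-OE1 libraries, against 15279, 13782, 11599.5 and 8879.8 CPM in the WT libraries. The groups overlapped widely, and DLK2-OE1 replicate 4 was above WT replicates 3 and 4. Its log2 fold change was -0.35 (SE 0.26, edgeR's adjusted p = 0.418). RBCS2B (AT5G38420) averaged 1671 ± 498 CPM in DLK2-OE1 and 2478 ± 437 CPM in WT (SD, n = 4 each), with a log2 fold change of -0.57 (SE 0.25). RBCS3B averaged 5209 ± 1734 CPM in DLK2-OE1 and 7099 ± 1632 CPM in WT, with a log2 fold change of -0.45 (SE 0.29). The groups of both genes overlapped, and neither passed the edgeR test. Summed over the 4 genes, which does not depend on how reads are divided among them, the RBCS level was 17944, 11600.5, 16028 and 23336 CPM in the DLK2-OE1 libraries, against 27534, 26311, 22226 and 16347 CPM in the WT libraries. The sum was lowest in DLK2-OE1 replicate 2, and WT replicate 4 lay below DLK2-OE1 replicates 1 and 4.

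RCA encodes Rubisco activase, which removes inhibitory sugar phosphates from the active site of Rubisco. Its level was 6310.3, 3874, 6900.1 and 7646 CPM in the DLK2-OE1 libraries, against 9292, 9029, 9143 and 6748 CPM in the WT libraries. WT replicates 1 to 3 lay close together above every DLK2-OE1 library, and WT replicate 4 lay below DLK2-OE1 replicates 3 and 4. The log2 fold change was -0.47 (SE 0.24, edgeR's adjusted p = 0.25). BCA1 (AT3G01500), a chloroplast carbonic anhydrase that interconverts carbon dioxide and bicarbonate, had 2726, 1429, 2826 and 3658 CPM in the DLK2-OE1 libraries, against 4134, 4790.5, 4624 and 2947 CPM in the WT libraries. Its DLK2-OE1 replicate 2 was the lowest library and WT replicate 4 lay below DLK2-OE1 replicate 4, with a log2 fold change of -0.63 (SE 0.29, edgeR's adjusted p = 0.20).

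The reduction genes encode phosphoglycerate kinase and the chloroplast glyceraldehyde-3-phosphate dehydrogenase, an enzyme built of A subunits (GAPA1, GAPA2) and B subunits (GAPB), of which the B subunit carries a regulatory tail related to CP12. GAPB (AT1G42970) had the most negative fold change of the 4. It had 2085, 1187, 2209 and 2693 CPM in the DLK2-OE1 libraries, against 4213, 3734, 3299 and 2332 CPM in the WT libraries. WT replicates 1 to 3 lay above every DLK2-OE1 library and WT replicate 4 lay below DLK2-OE1 replicate 4 only. GAPB had a fitted log2 fold change of -0.73 (SE 0.28), and edgeR's adjusted p was 0.14 where DESeq2's was 0.0463. GAPA1 (AT3G26650) ran from 1145 to 2249 CPM in DLK2-OE1 and 1805 to 2789 CPM in WT, with a log2 fold change of -0.48 (SE 0.23). GAPA2 (AT1G12900) ran from 719.8 to 1613 CPM in DLK2-OE1 and 1214 to 2134 CPM in WT, with a log2 fold change of -0.56 (SE 0.26). PGK1 (AT3G12780), the chloroplast phosphoglycerate kinase, ran from 1139.7 to 2009 CPM in DLK2-OE1 and 1716 to 2368 CPM in WT, with a log2 fold change of -0.38 (SE 0.20). The groups of all 4 genes overlapped and none passed the edgeR test.

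GAPB stood lower relative to the A subunit genes in DLK2-OE1. In FPKM it was 64.2, 54.8, 62.8 and 59.9% of the sum of GAPA1 and GAPA2 in the DLK2-OE1 libraries, against 74.6, 68.5, 72.1 and 66.4% in the WT libraries. All 4 DLK2-OE1 values lay below all 4 WT values, WT replicate 4 included, although the levels of the 3 genes themselves overlapped. The ratio was picked from 13 computed after its values were seen and was not tested.

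The regeneration genes rebuild ribulose 1,5-bisphosphate from triose phosphate, and all 8 had negative fold changes between -0.68 and -0.17. FBA1 and FBA2 encode chloroplast aldolases, with coding sequences 82.9% identical. FBA1 (AT2G21330) had 754, 481, 759 and 873 CPM in the DLK2-OE1 libraries, against 1402, 1238, 1168 and 798 CPM in the WT libraries. Again only WT replicate 4 reached into the DLK2-OE1 range, below DLK2-OE1 replicate 4. FBA1 had a fitted log2 fold change of -0.68 (SE 0.23), and edgeR's adjusted p was 0.107 where DESeq2's was 0.0255. FBA2 (AT4G38970) averaged 1976 ± 467 CPM in DLK2-OE1 and 2890.1 ± 512 CPM in WT (SD, n = 4 each), with a log2 fold change of -0.55 (SE 0.22).

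SBPASE and FBP encode the chloroplast bisphosphatases, which take phosphate off sedoheptulose 1,7-bisphosphate and fructose 1,6-bisphosphate and are switched on in the light by thioredoxin. SBPASE (AT3G55800) had 706, 449, 738 and 878 CPM in the DLK2-OE1 libraries, against 1093, 1089, 1069 and 758 CPM in the WT libraries. WT replicates 1 to 3 lay within a narrow range above every DLK2-OE1 library, and WT replicate 4 lay below DLK2-OE1 replicate 4. The log2 fold change of SBPASE was -0.53 (SE 0.22, edgeR's adjusted p = 0.163). FBP, locus AT3G54050, averaged 654 ± 196 CPM in DLK2-OE1 and 940.2 ± 148 CPM in WT (SD, n = 4 each), with a log2 fold change of -0.52 (SE 0.24).

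TKL1 encodes transketolase, which moves carbon pairs between sugar phosphates. TKL1 (AT3G60750) had 1322, 979, 1268 and 1494 CPM in the DLK2-OE1 libraries, against 1804, 1904, 1903 and 1457 CPM in the WT libraries. WT replicate 4 was below DLK2-OE1 replicate 4 and above the other DLK2-OE1 libraries, and DESeq2 called the gene (adjusted p = 0.0235) where edgeR did not (adjusted p = 0.124), at a log2 fold change of -0.48 (SE 0.17). RPE (AT5G61410), ribulose-phosphate epimerase, ran from 355 to 619.8 CPM in DLK2-OE1 and 578 to 777 CPM in WT, with a log2 fold change of -0.50 (SE 0.19). PRK (AT1G32060), the phosphoribulokinase that makes the acceptor of carbon dioxide, ran from 659 to 1364 CPM in DLK2-OE1 and 1227 to 1624 CPM in WT, with a log2 fold change of -0.48 (SE 0.23). TPI, the plastid triose-phosphate isomerase of locus AT2G21170, had the value nearest 0 of the 32 genes. It had 418, 342, 385 and 481 CPM in the DLK2-OE1 libraries, against 527, 466, 470.4 and 372 CPM in the WT libraries, with both groups spread over nearly the same range and a log2 fold change of -0.17 (SE 0.15, edgeR's adjusted p = 0.492).

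CP12 proteins are small proteins that bind glyceraldehyde-3-phosphate dehydrogenase and phosphoribulokinase in the dark and hold them inactive. The 3 genes differed in direction. CP12-2 (AT3G62410) had 167, 115, 229 and 233 CPM in the DLK2-OE1 libraries, against 318, 312, 286 and 248 CPM in the WT libraries. All 4 DLK2-OE1 libraries lay below all 4 WT libraries, DLK2-OE1 replicate 2 lowest. The mean was 186 ± 56.1 CPM in DLK2-OE1 and 291 ± 31.9 CPM in WT (SD, n = 4 each), 36.1% lower in DLK2-OE1, with a log2 fold change of -0.65 (SE 0.22) while edgeR's adjusted p was 0.107 and DESeq2's was 0.0383. CP12-1 (AT2G47400), the more abundant gene, had 476, 424, 684 and 705 CPM in the DLK2-OE1 libraries, against 765, 746, 748 and 591 CPM in the WT libraries. DLK2-OE1 replicates 1 and 2 lay below every WT library, while replicates 3 and 4 lay above WT replicate 4, and the log2 fold change was -0.32 (SE 0.19, edgeR's adjusted p = 0.323).

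CP12-3 was the single gene with a higher mean in DLK2-OE1. It has 1 exon, on the plus strand of chromosome 1 from 28728206 to 28728976 (TAIR10.1). CP12-3 had 9.42, 11.7, 10.2 and 8.29 CPM in the DLK2-OE1 libraries, against 7.31, 6.58, 7.40 and 7.70 CPM in the WT libraries. The deposited counts behind these values were 188, 273, 191 and 147 in DLK2-OE1 and 124, 134, 149 and 151 in WT. All 4 DLK2-OE1 libraries lay above all 4 WT libraries, with DLK2-OE1 replicate 2 highest, the library that was lowest for the other 31 genes. The means differed 1.37-fold, with a log2 fold change of 0.45 (SE 0.13) while edgeR's adjusted p was 0.0779 and DESeq2's was 0.0289. Its coding sequence was 56.0% identical to that of CP12-1 and 57.7% identical to that of CP12-2, which were 68.4% identical to each other, and no stretch of 100 bases was shared between the 3. CP12-2 as a share of CP12-1, in FPKM, was 32.9, 25.6, 31.5 and 31.1% in the DLK2-OE1 libraries, against 39.1, 39.3, 36.0 and 39.4% in the WT libraries. Those values did not overlap, and this ratio too was picked after its values were seen and was not tested.

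**Figure D3:**
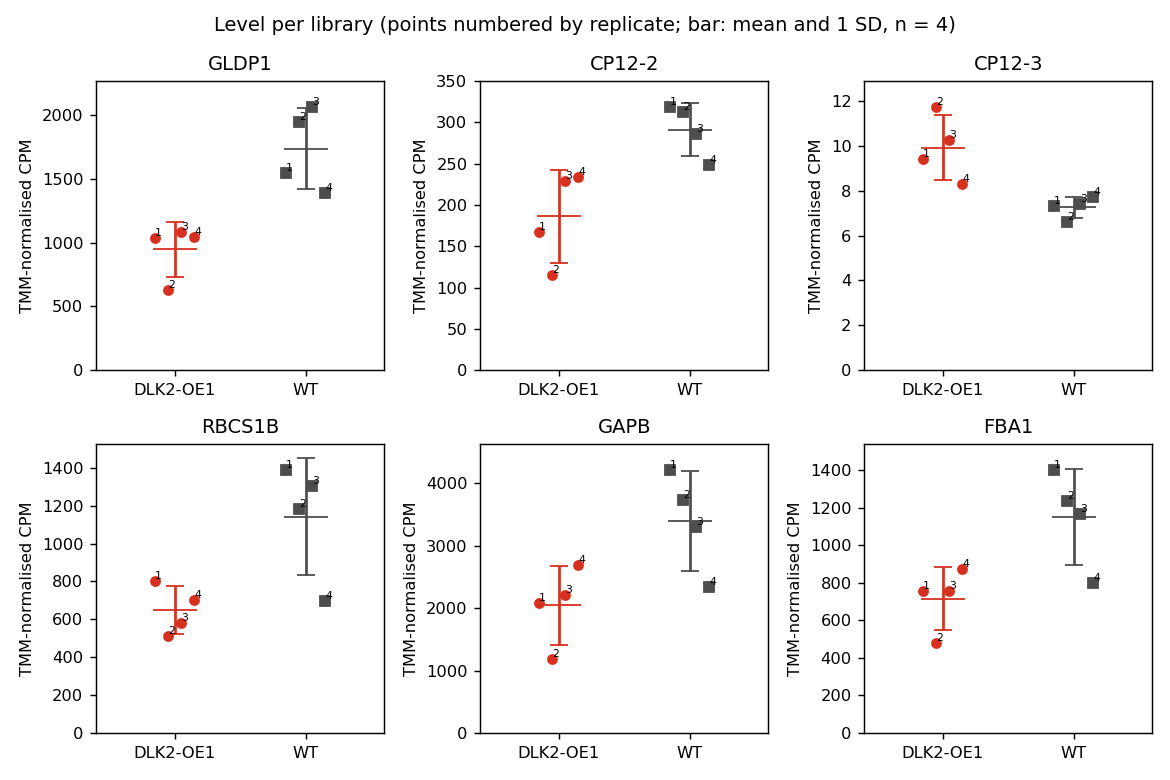
Level in TMM-normalised CPM (vertical axis, from 0) of the 3 genes whose genotypes did not overlap (GLDP1, CP12-2, CP12-3) and of the 3 others with the most negative fold changes (RBCS1B, GAPB, FBA1), with DLK2-OE1 left of WT, points numbered by replicate and bars of mean and 1 SD (n = 4). In RBCS1B, GAPB and FBA1 WT replicate 4 lies below at least 1 DLK2-OE1 library, and CP12-3 is higher in every DLK2-OE1 library.

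The photorespiration genes follow the salvage route from the chloroplast through peroxisome and mitochondrion, and all 11 had negative fold changes. The most negative was that of GLDP1 (AT4G33010), which encodes the P protein of the mitochondrial glycine decarboxylase, the subunit that binds glycine and releases its carboxyl group. The TAIR10.1 annotation places GLDP1 at 15926652 to 15931422 of chromosome 4, minus strand, with 14 exons. GLDP1 had 1035, 629.8, 1086 and 1041 CPM in the DLK2-OE1 libraries, against 1547, 1945, 2061 and 1393 CPM in the WT libraries. All 4 DLK2-OE1 libraries lay below all 4 WT libraries, and DLK2-OE1 replicates 1, 3 and 4 lay close together above replicate 2. The mean was 948 ± 213 CPM in DLK2-OE1 and 1736 ± 318 CPM in WT (SD, n = 4 each), 45.4% lower in DLK2-OE1. GLDP1 had a fitted log2 fold change of -0.87 (SE 0.22), an unadjusted p of 0.00269 by edgeR, and adjusted values of 0.0555 by edgeR and 0.00109 by DESeq2.

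The second P protein gene, GLDP2, whose coding sequence is 84.8% identical to that of GLDP1, had 371, 289, 348 and 350.2 CPM in the DLK2-OE1 libraries, against 367, 409, 426 and 335 CPM in the WT libraries. Its groups overlapped and its log2 fold change was -0.18 (SE 0.13, edgeR's adjusted p = 0.402). In FPKM, GLDP1 stood at 281, 220, 314 and 300% of GLDP2 in the DLK2-OE1 libraries, against 424, 479, 488 and 419% in the WT libraries. Those values did not overlap, and this ratio, like those of GAPB and CP12-2, was picked after its values were seen and was not tested. The 2 transcripts shared no stretch of 100 bases.

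The other glycine decarboxylase and hydroxymethyltransferase genes among the 32 had fold changes between those of GLDP1 and GLDP2. GDH1 (AT2G35370), which encodes an H protein that shuttles the aminomethyl group between subunits, had 349, 238, 391 and 481 CPM in the DLK2-OE1 libraries, against 730.0, 619.7, 554 and 419.6 CPM in the WT libraries. WT replicate 4 lay below DLK2-OE1 replicate 4 and above the others, with a log2 fold change of -0.67 (SE 0.24) while edgeR's adjusted p was 0.119 and DESeq2's was 0.0429. GLDT (AT1G11860), the T protein, ran from 549 to 1083 CPM in DLK2-OE1 and 843 to 1282 CPM in WT, with a log2 fold change of -0.45 (SE 0.22). SHM1 (AT4G37930), the mitochondrial serine hydroxymethyltransferase that turns glycine into serine, had 2144, 1313, 2666 and 2884 CPM in the DLK2-OE1 libraries, against 3468, 3492, 3504 and 2793 CPM in the WT libraries. WT replicates 1 to 3 lay within a narrow range above every DLK2-OE1 library and WT replicate 4 lay between DLK2-OE1 replicates 3 and 4, with a log2 fold change of -0.56 (SE 0.25, edgeR's adjusted p = 0.186).

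In the peroxisome, glycolate oxidase makes glyoxylate, which aminotransferases turn into glycine. GOX1 and GOX2, neighbours on chromosome 3 with 377 bases between them and coding sequences 90.6% identical, shared no stretch of 100 bases. GOX1 (AT3G14420) ran from 573 to 1232 CPM in DLK2-OE1 and 1225 to 1617 CPM in WT, with a log2 fold change of -0.58 (SE 0.24). GOX2 (AT3G14415) ran from 446 to 672 CPM in DLK2-OE1 and 661 to 834 CPM in WT, with a log2 fold change of -0.41 (SE 0.16). The groups of both genes overlapped, since the highest DLK2-OE1 library lay just above the lowest WT library, and neither passed the test of edgeR. GGT1 (AT1G23310), glutamate:glyoxylate aminotransferase, had 1649, 1086, 2419 and 2345 CPM in the DLK2-OE1 libraries, against 2488, 2732, 2506 and 2324 CPM in the WT libraries. DLK2-OE1 replicates 3 and 4 lay just above the lowest WT library, and replicates 1 and 2 lay far below all WT libraries, with a log2 fold change of -0.42 (SE 0.25). AGT1 (AT2G13360), serine:glyoxylate aminotransferase, had 1233, 826, 1816 and 1813 CPM in the DLK2-OE1 libraries, against 1715, 1988, 1953 and 1559 CPM in the WT libraries, the same split of the DLK2-OE1 libraries, with a log2 fold change of -0.34 (SE 0.25). Without DLK2-OE1 replicates 1 and 2 the value of AGT1 was 0.02 (edgeR's adjusted p = 0.966).

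HPR1 (AT1G68010), hydroxypyruvate reductase, ran from 494 to 1022 CPM in DLK2-OE1 and 885 to 1113 CPM in WT, with a log2 fold change of -0.34 (SE 0.23). GLYK, the glycerate kinase that returns carbon to the Calvin cycle, ran from 186 to 325 CPM in DLK2-OE1 and 259 to 364 CPM in WT, with a log2 fold change of -0.31 (SE 0.18). PGLP1 (AT5G36700) encodes the phosphoglycolate phosphatase that opens the route, and its reads cannot be told apart from those of AT5G36790, 55871 bases away on chromosome 5, because the coding sequences are identical and all stretches of 100 bases of PGLP1 occur in both. Summed over the pair, the level was 478, 337, 501 and 580 CPM in the DLK2-OE1 libraries, against 681, 648, 716 and 536 CPM in the WT libraries. Only WT replicate 4 lay below a DLK2-OE1 library, replicate 4, and the log2 ratio of the means was -0.44.

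Across the 32 genes the libraries kept nearly the same order. DLK2-OE1 replicate 2 was the lowest of the 8 libraries for 31 genes, where it was the lowest for 24.8% of all tested genes. WT replicate 4 was the lowest WT library for 31 genes, against 31.3% of all tested genes, and lay below the highest DLK2-OE1 library for 30, against 76.2%. Of the 32 genes, 26 were below every WT library in DLK2-OE1 replicate 1, where 31.2% of all tested genes were. The count was 31 in replicate 2, against 33.8%, 19 in replicate 3, against 23.5%, and 3 in replicate 4, against 23.1%. The groups did not overlap for 3 genes. These were GLDP1 and CP12-2, lower in DLK2-OE1 where 7.29% of all tested genes did not overlap in that direction, and CP12-3, higher where 7.87% did not. Without WT replicate 4 the count of lower genes without overlap was 27, against 13.4% of all tested genes, and without DLK2-OE1 replicate 4 it was 17, against 11.6%. The median deviation of the 32 genes from the WT mean, on the log2 scale, was -0.53, -1.12, -0.35 and -0.13 in the DLK2-OE1 libraries, against 0.14, 0.13, 0.05 and -0.30 in the WT libraries. Without DLK2-OE1 replicates 1 and 2 the median log2 fold change of the 32 genes was -0.23.

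**Figure D4:**
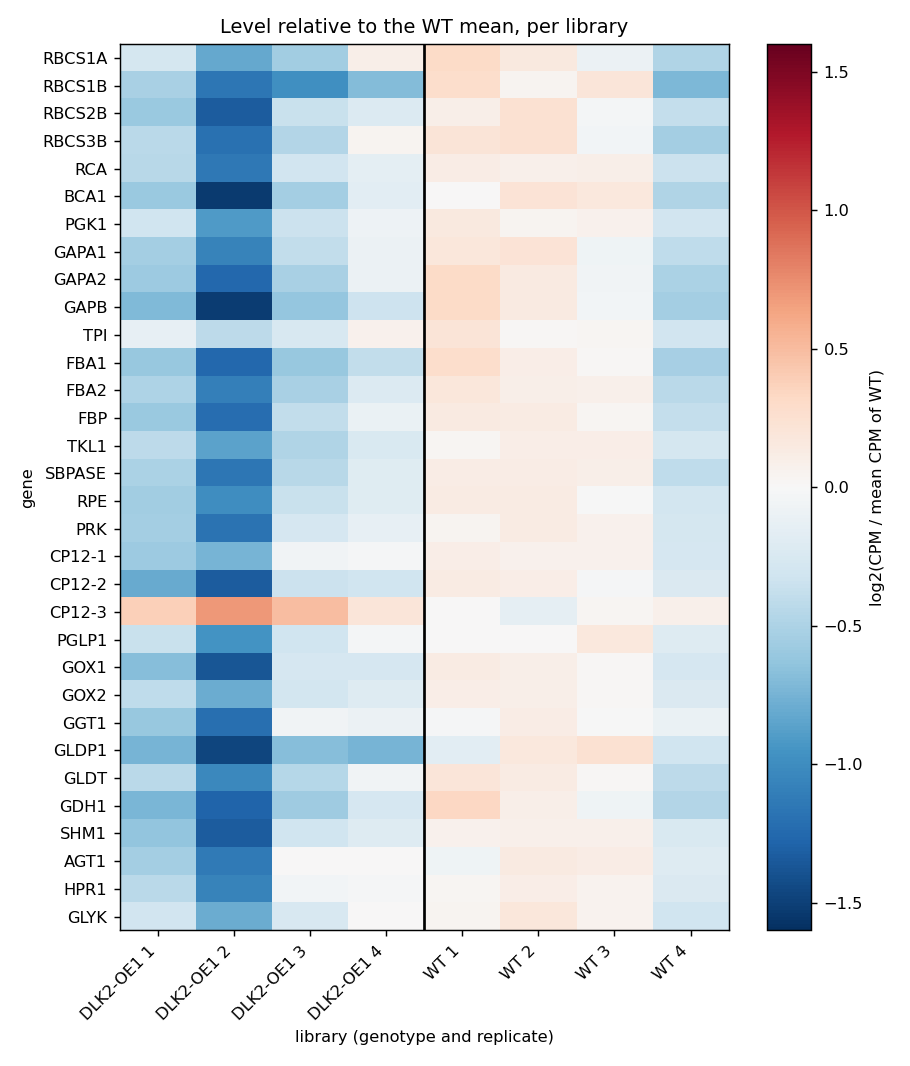
Level of each of the 32 genes (vertical axis) in each library (horizontal axis, DLK2-OE1 replicates 1 to 4, then WT replicates 1 to 4), as log2 of CPM over the mean CPM of WT, blue below and red above. The column of DLK2-OE1 replicate 2 is the darkest blue, the WT replicate 4 column is blue as well, and CP12-3 is the single gene that is red in all 4 DLK2-OE1 libraries.

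For the 32 light-harvesting and photosystem genes, 32 of 32 had negative log2 fold changes, 0 passed the edgeR test, also at an unadjusted p under 0.05, DESeq2 called 0, and the median was -0.37. Their median deviations from the WT mean were -0.54, -1.11, -0.11 and 0.06 in the DLK2-OE1 libraries, against 0.05, 0.18, -0.00 and -0.22 in the WT libraries. They too were lowest in DLK2-OE1 replicate 2. Markers of xylem ran the other way. Of 8 xylem markers 7 were tested, VND7 being too low, and all 7 had positive fold changes. Of these, 3 passed the edgeR test (IRX3, IRX1 and CESA4, cellulose synthase subunits of the secondary wall), where 2.12% of all tested genes were called higher, with a summed level of 65.9 to 271 CPM in DLK2-OE1 and 23.2 to 63.4 CPM in WT. All 9 markers of dividing cells had positive fold changes and 4 passed (CYCB2;2, AUR2, CDKB1;1 and CDKB2;2), with a summed level of 28.5 to 121 CPM in DLK2-OE1 and 13.2 to 21.9 CPM in WT. DESeq2 called 5 of the 8 xylem markers and 9 of the 9 dividing cell markers higher, where it called 8.6% of all genes higher.

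The median deviations of the xylem markers were 1.80, 2.61, 0.98 and 0.32 in the DLK2-OE1 libraries, against -0.80, 0.05, 0.19 and 0.63 in the WT libraries. Those of the dividing cell markers were 2.58, 3.01, 1.08 and 0.55 in the DLK2-OE1 libraries, against -0.32, 0.28, -0.14 and 0.27 in the WT libraries. Both were highest in the DLK2-OE1 library in which the Calvin cycle and photorespiration genes were lowest. Of 5 phloem markers 3 had negative and 2 positive fold changes, with a median of -0.15. The edgeR test called 1, SEOa, higher in DLK2-OE1, where 2.12% of all tested genes were called higher. DESeq2 called 2 higher, where it called 8.6% of all genes higher. The sum of the phloem markers was 366 to 536 CPM in DLK2-OE1 and 506 to 554 CPM in WT. Of 5 guard cell markers 4 had negative and 1 positive fold changes, with a median of -0.17. None passed by edgeR or DESeq2, and 1 was lower at an edgeR unadjusted p under 0.05, against 12% of all tested genes. Their sum was 71.5 to 154 CPM in DLK2-OE1 and 127 to 192 CPM in WT. With DLK2-OE1 replicate 4 left out, edgeR called KAT1, of this list, lower (log2 fold change -0.91, adjusted p = 0.0356). Of 4 epidermis markers 3 had positive and 1 negative fold changes, with a median of 1.08. None passed the edgeR test, and 1 was higher at an edgeR unadjusted p under 0.05, against 14.3% of all tested genes. Their sum was 155 to 367 CPM in DLK2-OE1 and 154 to 223 CPM in WT. Their median deviations were 1.28, 1.65, 0.68 and -0.10 in the DLK2-OE1 libraries, against -0.41, 0.69, -0.03 and -0.09 in the WT libraries. DESeq2 called 1 of the 4 higher, where it called 8.6% of all genes higher. This was GL2, a regulator of epidermal cell fate, at a DESeq2 log2 fold change of 2.11 (adjusted p = 0.0329). The edgeR test called GL2 with DLK2-OE1 replicate 4 left out (adjusted p = 0.029). No marker was at 0 in every library of a group, and PDF1, of the epidermis list, was at 0 in WT replicate 1. All 8 calls among the markers were lost with DLK2-OE1 replicate 1, WT replicate 1, WT replicate 2 or WT replicate 3 left out, some also with another library left out, at edgeR adjusted p from 0.0585 to 0.154 where lost. Limma-voom made none of the 8 calls (adjusted p from 0.0596 to 0.118). The part of these cell types in the values of the 32 genes was not tested.

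**Figure D5:**
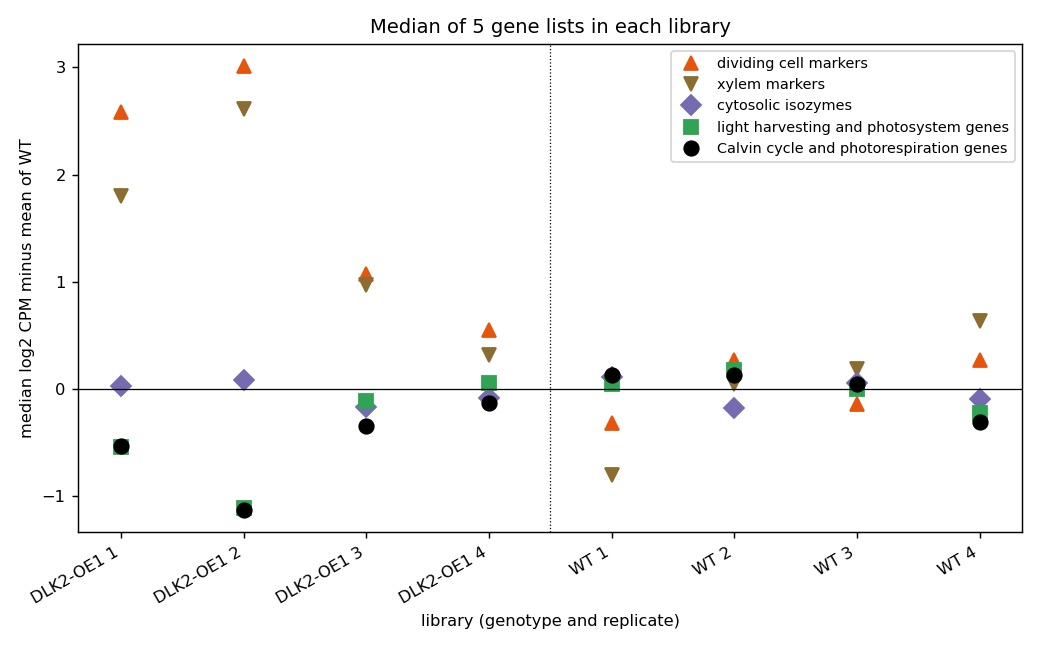
Median log2 CPM of 5 gene lists in each library, as the difference from the mean of WT (vertical axis), with DLK2-OE1 replicates 1 to 4 left of WT replicates 1 to 4. The Calvin cycle and photorespiration genes (black) and the light-harvesting genes (green) are lowest in DLK2-OE1 replicate 2, at -1.12 and -1.11, where the dividing cell markers (orange) are highest, at 3.01.

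Further genes of the same pathways were examined beside the 32. Of 17 other Calvin cycle genes, among them Rubisco assembly factors, chaperonins and minor isozymes, none passed the edgeR test. At an edgeR unadjusted p under 0.05, 6 were lower, against 12% of all tested genes. DESeq2 called 1 lower, where it called 5.18% of all genes lower. Of the 17 genes 15 had negative fold changes, and the median was -0.38. The nearest to the threshold was AT3G04550, annotated as a Rubisco accumulation factor-like protein. It had 126, 107, 111 and 129.9 CPM in the DLK2-OE1 libraries, against 171, 178, 199 and 141 CPM in the WT libraries, without overlap, and a log2 fold change of -0.54 (SE 0.13, edgeR's adjusted p = 0.0504). AT3G04550 was the gene that DESeq2 called (adjusted p = 0.00118). The edgeR test called it without DLK2-OE1 replicate 4 (adjusted p = 0.0331) or without WT replicate 4 (adjusted p = 0.0417). Next was AT5G51110, annotated as a pterin dehydratase-like protein, at a log2 fold change of -0.43 (SE 0.16, edgeR's adjusted p = 0.125).

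Of 22 other photorespiration genes 1 passed the edgeR test, in the lower direction, where 1.58% of all tested genes were called lower. At an edgeR unadjusted p under 0.05, 9 were lower, against 12% of all tested genes, and 1 higher, against 14.3%. The groups of 4 did not overlap in the lower direction, against 7.29% of all tested genes, and of 1 in the higher, against 7.87%. DESeq2 called 5 of the 22 lower, where it called 5.18% of all genes lower, and 1 higher, where it called 8.6% higher. The lower calls included AT5G36790, whose reads cannot be told apart from those of PGLP1. By DESeq2 AT5G36790 was at a log2 fold change of -0.53 (adjusted p = 0.0214) and PGLP1 at -0.37 (adjusted p = 0.20). The edgeR call was AT4G22840, a member of the bile acid:sodium symporter family, known as the plastid glycolate exporter BASS6. AT4G22840 had 5.01, 4.85, 4.88 and 4.01 CPM in the DLK2-OE1 libraries, against 7.37, 7.61, 8.94 and 8.01 CPM in the WT libraries. Every DLK2-OE1 library lay below every WT library, and the gene fell by 0.77 on the log2 scale (SE 0.13, edgeR's adjusted p = 0.027). The call was lost with DLK2-OE1 replicate 1, WT replicate 1, WT replicate 2 or WT replicate 3 left out, at edgeR adjusted p from 0.0671 to 0.113. The median of the 22 genes was -0.31, and 19 were negative. Of the 3 genes with positive values, AT2G35120, a further H protein gene, had 20.8, 25.9, 6.86 and 7.11 CPM in the DLK2-OE1 libraries, against 5.01, 4.76, 3.38 and 5.76 CPM in the WT libraries, at a log2 fold change of 1.69 (SE 0.44, edgeR's adjusted p = 0.0628). The groups of AT2G35120 did not overlap, and DESeq2 called it higher (adjusted p = 0.00304). Its level was highest in DLK2-OE1 replicates 1 and 2, and it was named after its value was seen.

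Of 9 genes of the ferredoxin-thioredoxin system, which switches Calvin cycle enzymes on in the light, none passed the edgeR test. At an edgeR unadjusted p under 0.05, 2 were lower, against 12% of all tested genes. All 9 had negative fold changes and the median was -0.42. TRXF1, the thioredoxin f that reduces the bisphosphatases, had 174, 119, 206 and 218 CPM in the DLK2-OE1 libraries, against 306, 296, 259.7 and 225 CPM in the WT libraries, without overlap, at a log2 fold change of -0.60 (SE 0.19, edgeR's adjusted p = 0.0984). DESeq2 called TRXF1 lower, as 1 of the 9 (adjusted p = 0.0316), where it called 5.18% of all genes lower. FTRA1, a subunit of ferredoxin-thioredoxin reductase, stood at -0.25 (SE 0.11, edgeR's adjusted p = 0.171). Of 11 genes that turn triose phosphate into sucrose and starch 1 passed the edgeR test, where 1.58% of all tested genes were called lower. At an edgeR unadjusted p under 0.05, 6 were lower, against 12% of all tested genes. The groups of 5 did not overlap, lower in DLK2-OE1, against 7.29% of all tested genes. DESeq2 called 4 lower, where it called 5.18% of all genes lower. The edgeR call was ATSPS4F for a sucrose-phosphate synthase. ATSPS4F had 78.6, 45.2, 105 and 85.0 CPM in the DLK2-OE1 libraries, against 162, 160.4, 202 and 134 CPM in the WT libraries, without overlap, and fell by 1.07 on the log2 scale (SE 0.24, edgeR's adjusted p = 0.0466). The call on ATSPS4F was lost with DLK2-OE1 replicate 1 or any 1 WT library left out, at edgeR adjusted p from 0.0557 to 0.149, and limma-voom did not make it (adjusted p = 0.0628). Of that list 9 genes had negative and 2 positive fold changes, and the median was -0.38.

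The cytosolic relatives of the Calvin cycle enzymes had values nearer to 0. Of 8 genes for cytosolic glyceraldehyde-3-phosphate dehydrogenase, phosphoglycerate kinase, triose-phosphate isomerase and aldolase, 5 had negative and 3 positive fold changes, with a median of -0.13. None passed by edgeR or DESeq2, and 1 was lower at an edgeR unadjusted p under 0.05, against 12% of all tested genes. The difference between these 8 genes and the 32 was not tested. Their median deviations from the WT mean were 0.03, 0.09, -0.16 and -0.08 in the DLK2-OE1 libraries, so that DLK2-OE1 replicate 2 was not the lowest library there. FBA5, a cytosolic aldolase, was the exception in size, at 412, 206, 631 and 617 CPM in the DLK2-OE1 libraries, against 828, 957, 919.5 and 633 CPM in the WT libraries, with a log2 fold change of -0.84 (SE 0.32, edgeR's adjusted p = 0.145). FBA6, another cytosolic aldolase, stood at -0.16 (SE 0.09, edgeR's adjusted p = 0.294).

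Genes outside all lists whose levels over the 8 libraries most resembled the mean of the 32 genes were NdhN, ABCB26, AT5G07020, AT2G21960 and PnsL1, with Pearson correlations of 0.997, 0.997, 0.996, 0.996 and 0.996 on log2 CPM. NdhN and PnsL1 encode subunits of the chloroplast NADH dehydrogenase-like complex, ABCB26 an ABC transporter, AT5G07020 a proline-rich family protein and AT2G21960 an uncharacterized protein. A correlation over 0.9 was found for 1167 tested genes (6.43%). Within the 32 genes, 27 had a correlation over 0.9 with the mean of the others. These correlations describe 8 libraries that fall into 2 genotypes and share their depth and composition.

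The 250 bases before the start of each gene, taken from RefSeq TAIR10.1 as the 5′ end shared by most of its annotated transcripts, were searched on both strands for 3 short motifs known from light-regulated and clock-regulated plant genes. The G-box CACGTG was found upstream of 6 of the 32 genes (RBCS2B, RBCS3B, FBP, PRK, GGT1 and GLDP1), and in 6.6% of the 27443 promoters of all genes and 7.66% of those of tested genes. The I-box GATAAG was found upstream of 6 (RBCS2B, RBCS3B, RCA, FBP, CP12-2 and CP12-3), and in 12.4% of all promoters. The evening element AAAATATCT was found upstream of none of the 32, and in 2.33% of all promoters. Some of these windows overlap an exon of another annotated transcript of the same gene. The windows depend on the annotated 5′ end, which lies at unlike distances from the coding start. For RBCS1A the gene-side edge of the window was at 25049668 and the coding start at 25049249. For RBCS2B these were at 15382072 and 15381978. Bases between window and coding start were not searched, so a gene without a match here may still hold the motif nearby. Shown are an RBCS promoter that holds both motifs, the promoter of the gene with the most negative fold change and that of the single gene with a positive one, 250 bases each, 5′ to 3′ on the strand of the gene, with capitals at the motif matches.
RBCS2B, chr5:15382072-15382321, minus strand: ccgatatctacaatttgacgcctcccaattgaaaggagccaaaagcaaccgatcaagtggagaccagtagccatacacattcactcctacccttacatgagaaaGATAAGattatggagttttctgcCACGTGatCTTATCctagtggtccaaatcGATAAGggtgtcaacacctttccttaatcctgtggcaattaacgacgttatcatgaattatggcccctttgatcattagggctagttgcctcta
GLDP1, chr4:15931423-15931672, minus strand: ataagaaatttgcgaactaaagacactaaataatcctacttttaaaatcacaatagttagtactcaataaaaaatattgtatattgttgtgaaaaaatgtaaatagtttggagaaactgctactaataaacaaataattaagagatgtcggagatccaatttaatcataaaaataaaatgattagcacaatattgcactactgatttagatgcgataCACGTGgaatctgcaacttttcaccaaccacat
CP12-3, chr1:28727956-28728205, plus strand: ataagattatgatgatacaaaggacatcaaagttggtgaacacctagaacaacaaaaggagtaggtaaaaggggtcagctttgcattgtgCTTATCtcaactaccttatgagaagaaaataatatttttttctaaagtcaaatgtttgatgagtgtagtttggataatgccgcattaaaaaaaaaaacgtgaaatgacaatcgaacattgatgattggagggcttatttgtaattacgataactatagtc

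RBCS2B holds 1 G-box at position -123 and 3 I-boxes at -146, -115 and -94, counted from the start of the gene, of which the one at -115 lies on the opposite strand, so that it is printed as CTTATC. GLDP1 holds 1 G-box at -33 and no I-box. CP12-3 holds 1 I-box at -160, on the opposite strand, and no G-box. The log2 fold changes of the 6 genes with a G-box ran from -0.87 to -0.42, where the median of all 32 genes was -0.48. A link between motif and fold change was not tested. A match describes these letters in this window and is not evidence that a factor binds there.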

How the data were processed

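RNA of 8 rosette leaf libraries, 4 of DLK2-OE1 and 4 of WT, was captured with oligo(dT) beads and sequenced on an Illumina NovaSeq, per the labels' protocols. Per the submitters' processing notes, the authors' tools were edgeR, DESeq2, RSEM, StringTie 1.3.1, HISAT2, Bowtie2 2.2.8 and fastp 0.18.0, in unstated roles, and the build was TAIR10. Strand setting, annotation release and read length were not given in the sources used here. Per the file headers, each deposited table gives 1 count and 1 FPKM value per gene, both made by the authors. It was not tested whether the counts are whole reads or rounded estimates. Of 27634 rows, 26719 matched locus tags of RefSeq's TAIR10.1 annotation, from which gene names, positions and sequences were taken. Replicate pairs differed by far more than counting noise (chi-square per degree of freedom 11.4 to 108.1), so each library counted once.

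The members and the other gene lists were chosen with earlier results of these data known. The deposited counts were fitted with edgeR 4.0.16 under R 4.3.3, using filterByExpr, TMM, estimateDisp, robust glmQLFit and glmQLFTest, and p-values of the 18155 tested genes were adjusted by Benjamini-Hochberg, with a threshold of 0.05. CPM values are TMM-normalised. Standard errors were derived as log2 fold change over the root of F. For DLK2 an exact two-sided permutation test of the difference in mean CPM in SciPy 1.17.1 gave p = 0.0286, the smallest of 70 assignments. By rule, named genes were all 32 members, DLK2 and the 5 genes outside the lists that correlated best with the members. From each other list up to 4 genes past the threshold were added (the 2 with the smallest p where none passed). Genes named outside this rule were GLDP2, AT5G36790, AT2G35120 and VND7, the first 2 as copies of members and the last as a marker too low to test. AT1G12480 of the guard cell list and AT1G15820 of the light-harvesting list fell under the rule, and their levels are not described. Alternatives, described in the closing section, were DESeq2 1.42.0 and its size factors, limma-voom and limma-trend on log2 FPKM in limma 3.58.1, other filters on low counts, a replicate block and the omission of libraries.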

Additional observations from a re-analysis of the deposited data

Results flagged for a closer look

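In groups of 4 libraries, a library whose gap to its nearest neighbour exceeded Dixon's critical share of the range was looked for in 120 groups, the 2 genotypes of 60 genes. It was found in 12, where chance alone gives about 1 in 20 groups. The groups are not independent, since the same libraries recur.

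In DLK2-OE1 replicate 2, GLDP1 was at 629.8 CPM, with the other 3 DLK2-OE1 libraries at 1035 to 1086 CPM. In WT replicate 4, 4 Calvin cycle and photorespiration genes were low. RCA was at 6748 CPM (other WT libraries 9029 to 9292), SBPASE at 758 CPM (1069 to 1093), SHM1 at 2793 CPM (3468 to 3504) and CP12-1 at 591 CPM (746 to 765). In the same library 3 genes outside the 32 were low as well, PSBO2 at 1447 CPM (1817 to 1889.8), NdhN at 33.1 CPM (47.2 to 49.5) and AT2G21960 at 67.9 CPM (86.4 to 89.5), and CDKB1;1, a cyclin-dependent kinase of dividing cells, was high at 1.07 CPM (0.639 to 0.649).

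In DLK2-OE1, AT4G22840 was at 4.01 CPM in replicate 4 (other DLK2-OE1 libraries 4.85 to 5.01), and IRX1 was at 43.3 CPM in replicate 2 (10.8 to 16.4). PDF1, of the epidermis list, was at 38.6 CPM in WT replicate 2, with the other WT libraries at 0 to 1.79 CPM.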

How the results depend on the processing

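The direction of the median log2 fold change of the 32 genes held in all alternatives run, from -0.63 (DLK2-OE1 replicate 4 left out) to -0.23 (DLK2-OE1 replicates 1 and 2 left out). On log2(FPKM + 1) and log2(FPKM + 0.1) it was -0.36, where the median of all genes was itself at 0.12 and 0.13, so that relative to it the 32 genes lay at -0.48 and -0.50. The number of the 32 genes called was 0 by edgeR and stayed at 0 in the alternatives, except 8 with DESeq2, 2 without DLK2-OE1 replicate 4 (GLDP1 and CP12-3) and 1 without WT replicate 4 (RBCS1B), a range of 0 to 2 on omitting 1 library. Limma-voom called 0, with 17 at an unadjusted p under 0.05. Of 544 values of the 32 genes under alternatives, 532 stayed on their side of the threshold, 11 passed it, and 1 turned sign, AGT1 at 0.020 without DLK2-OE1 replicates 1 and 2. The count of lower genes without overlap was 2, and 2 to 27 on omitting 1 library, an alternative chosen after seeing the data. Over all genes, 670 were called by edgeR, 2821 by DESeq2, 265 by limma-voom (108 higher and 157 lower, against 384 and 286 by edgeR), 288 and 355 by limma-trend with pseudocounts of 1 and 0.1, 60 without DLK2-OE1 replicates 1 and 2, and 0 to 2191 on omitting 1 library. These were 14, 232, 1368 and 2191 without DLK2-OE1 replicates 1, 2, 3 and 4 in turn, and 13, 118, 0 and 504 without WT replicates 1, 2, 3 and 4. The 0 had 3599 genes at an unadjusted p under 0.05. The log2 fold change of DLK2 was 0.92, and 0.83 to 0.99 on omitting 1 library, with an edgeR adjusted p of 0.0574 without DLK2-OE1 replicate 1, 0.067 without WT replicate 1 and 0.0548 without WT replicate 3. With a replicate block 245 genes were called, 0 of the 32, with a median of -0.51 over the 32, and of the marker calls that of AUR2 alone was made; AT4G22840 and ATSPS4F were at edgeR adjusted p of 0.0696 and 0.0581. Deviations of same-numbered replicates from their group means correlated at -0.10 to 0.12 over the tested genes. With 4 libraries per group, these values cannot decide whether the numbers pair the samples, which the labels do not state. Of 457 values of other named genes, 88 lost the call and none turned sign. Among the 32 genes the fewest counts lay behind CP12-3, 124 to 273 per library.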
